A study of Callithrix jacchus with 4 samples.

Results

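The inhibitory neurons (InN) of marmoset primary visual cortex (V1) were the nuclei that carried the authors' cell type label InN in each of the deposited nucleus tables. There were 3230 such nuclei among 38147 in all. Injured replicates 1, 2 and 3 gave 399, 1098 and 722 InN, and the control library gave 1011. Each injured replicate was 1 adult common marmoset (*Callithrix jacchus*) whose V1 received endothelin-1 (ET-1), a peptide that constricts blood vessels and so causes an ischemic stroke, 7 days before the tissue was taken. The control library pooled V1 of 3 uninjured adult marmosets, and how far control animals vary is therefore unknown here. Opercular grey matter was dissected in both cohorts, and in the injured cohort it held both the core and the penumbra of the lesion, which the nuclei cannot be sorted into. The comparisons ask how InN differed between injured and control cortex, and how far the 3 injured animals differed among themselves.

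Cortical inhibitory neurons release gamma-aminobutyric acid (GABA), which they make with the glutamate decarboxylases GAD1 and GAD2 and load into vesicles with SLC32A1. They come from separate embryonic sources: cells that keep LHX6 become mainly the parvalbumin (PVALB) and somatostatin (SST) classes, and cells that carry ADARB2 become mainly the VIP, LAMP5 and CCK classes. Interferons, which cells release on infection or damage, act through receptors on the cell surface on a common set of antiviral genes, and most cell types can respond to them.

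The cohorts differed in more than injury. Nuclei were isolated by different protocols, the control nuclei were sorted, and the libraries were made in different facilities and sequenced on different instruments, so that these steps and injury cannot be told apart. InN were deeper in the injured cohort, with medians of 6628, 4846.5 and 5719 unique molecular identifiers (UMIs, 1 per captured RNA molecule) per nucleus in injured replicates 1 to 3 and 2441 in control. Summed InN UMIs came to 2498404, 5459835 and 4039368 for injured replicates 1 to 3 and 3084799 for control. Levels are given below as CPM, the UMIs of a gene per 1000000 InN UMIs of a library. No InN barcode occurred in more than 1 library. The methods name 2500 genes as an upper limit for control nuclei, and 19.0% of control InN lay above it.

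The defining markers were present, though *GAD1* was not particular to InN, at 429 CPM in InN and 218 CPM in oligodendrocyte precursors (OPC) of the injured cohort and at 341 and 267.5 CPM in control. *GAD2* stood at 929.8, 752 and 1202 CPM in InN of injured replicates 1 to 3 and at 669 CPM in control. Over the InN of a cohort together, *LHX6* was at 82.0 CPM in injured and 120.3 CPM in control, and no other cell type exceeded 5.33 CPM. *GAD2* reached at most 37.6 CPM in another cell type. *SLC17A7*, the vesicular glutamate transporter of excitatory neurons, was at 6.404, 7.88 and 9.16 CPM in the injured InN and 6.81 CPM in control. At least 1 UMI of *GAD1* or *GAD2* was found in 92.0%, 86.5% and 86.3% of InN of injured replicates 1 to 3 and in 78.6% of the shallower control InN. The authors' clusters divided the injured InN into 3 groups. The first held 1497 nuclei with *SOX6*, *LHX6* at 103.2 CPM and *SST*, but also *ADARB2* at 209.9 CPM and the ADARB2-lineage markers *LAMP5* and *SV2C* at 25.2 and 139.7 CPM, so it was mixed. The second held 393 nuclei with *ADARB2* at 1251 CPM, *LHX6* at 15.7 CPM, *VIP* and *CALB2*. The third held 329 nuclei with a median of 1610 UMIs and *GAD2* at 299.7 CPM against 1154 CPM in the first. That shallow cluster made up 14.04%, 12.8% and 18.3% of InN in injured replicates 1 to 3, and the results were also computed without it.

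InN were a smaller share of all nuclei in the injured cohort, and most of their mean excess among neuronal nuclei lay in the shallow cluster. They made up 5.32% (95% exact binomial interval 4.82 to 5.85%), 8.77% (8.28 to 9.27%) and 7.59% (7.07 to 8.14%) of all nuclei in injured replicates 1 to 3, a mean of 7.23% ± 1.75 (SD, n = 3), and 11.7% (11.1 to 12.4%) in control. All 3 injured animals lay below the control pool, and injured replicate 1 lay furthest below. Of InN and excitatory neurons (ExN) together, InN made up 17.7%, 19.4% and 19.3% in injured replicates 1 to 3, a mean of 18.8% ± 0.988 (SD, n = 3), and 15.8% (14.9 to 16.7%) in control. On that scale the 3 injured animals lay above control. The shallow cluster was also left out of injured InN, with all control InN and all ExN kept, which by itself lowers the injured shares. The shares of neuronal nuclei were then 15.6% (14.1 to 17.1%), 17.3% (16.3 to 18.4%) and 16.4% (15.2 to 17.6%) in injured replicates 1 to 3. Injured replicate 1 lay just below control and the other injured replicates above it. The mean excess fell from 3.03 to 0.661 percentage points. These intervals cover counting error only, a share also moves with the recovery of other nuclei, and with 1 control library no test was made.

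**Figure D1:**
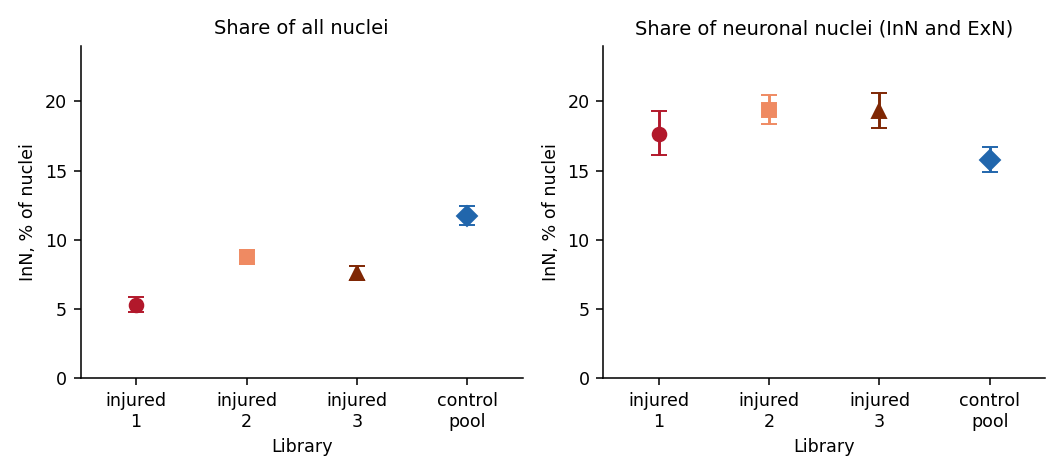
Share of InN (%) in each of the 3 injured libraries and the control pool, among all nuclei (left) and among neuronal nuclei (right), with 95% exact binomial intervals as bars. On the left the 3 injured libraries lie between 5.32% and 8.77%, under control at 11.7%, and on the right they lie between 17.7% and 19.4%, over control at 15.8%, with the shallow injured cluster included.

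Whether the balance of the interneuron lineages in control lay inside the range of the injured animals depended on depth. With every nucleus thinned to 1000 UMIs, which leaves out shallower nuclei (9, 41 and 32 InN of injured replicates 1 to 3 and 90 of control), nuclei with *LHX6* and without *ADARB2* were 26.8% (19.2 to 35.6%), 32.7% (27.5 to 38.2%) and 25.4% (19.4 to 32.2%) of the nuclei with either gene alone in injured replicates 1 to 3. In control the share was 29.6% (24.5 to 35.2%), inside the injured range. With all UMIs it was 46.5%, 53.1% and 45.1% in the injured replicates and 43.9% (39.5 to 48.4%) in control, below all 3.

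InN UMIs were summed per library, and the 3 injured libraries were compared with the control library by the quasi-likelihood test of edgeR, which takes the spread from the injured libraries and assumes it for control. A gene was called at an adjusted p under 0.01, a natural-log fold change beyond 0.25 and a UMI in at least 10% of InN of either cohort. Of 12984 genes tested, 443 were called (3.41%), 285 higher (2.2%) and 158 lower (1.22%) in injured InN. Each of the 443 lay on the same side of control in all 3 injured animals. This adds no support to the calls, because the spread in the test comes from the same 3 libraries. The same holds below where called genes are said not to overlap control. With libraries scaled by their totals alone, 521 were called, and the share of calls that were higher was 47.6% in place of 64.3%. Without injured replicate 1 there were 253 calls, and without injured replicate 2 there were 1499, among them all of the 443. Among the 158 falls, 31 were of genes listed at 0 in every injured nucleus of every cell type, and no fall of expression is read from these. The tables were not filtered alike. The injured table lists 32323 genes, 21390 of them with a UMI, and the control table lists 16383, all with a UMI. Whether genes were counted alike is not known here, and the part of counting in the fold change of a gene near 0 in a cohort was not tested. The gene lists below are described by their counts beside these percentages, and by their median log2 fold change beside that of all tested genes, 0.0027. At an unadjusted p under 0.05 by edgeR there were 4518 of the 12984 genes, and list counts at that limit are to be read beside this.

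The interferon response genes were higher in injured InN. Of 55 genes listed, 48 were in the injured table and 41 were tested, and 17 of these were called, all of them higher. All 41 had a positive log2 fold change, with a median of 3.96. The median was 3.85 with the 4 genes without a control UMI set at 3 control UMIs. Of the 41, 9 had at most 3 control UMIs and so entered the test through the injured libraries. The number called was 13 without injured replicate 1, 27 of 39 without injured replicate 2, 27 of 37 at 1000 UMIs per nucleus and 28 of 40 among nuclei with at most 2500 genes. *MX1*, a GTPase that blocks viral replication, stood at 197, 435 and 107 CPM in injured replicates 1 to 3 and at 5.51 CPM in control. All 3 injured animals lay far above control, injured replicate 2 highest (log2 fold change 5.59 ± 0.951 SE; edgeR, Benjamini-Hochberg adjusted p = 0.00513). *IFI6*, a small protein induced by interferon, was at 248, 271 and 148 CPM against 14.3 CPM (4.06 ± 0.404; edgeR adjusted p = 0.00029).

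*DDX58*, which encodes the RNA sensor RIG-I, stood at 201, 465 and 116 CPM in injured replicates 1 to 3 and at 16.2 CPM in control (4.12 ± 0.809; edgeR adjusted p = 0.00959), and its call was lost without injured replicate 1, among nuclei with *GAD1* or *GAD2* and among genes with at least 10 UMIs in each cohort. *IFIH1*, which encodes the related sensor MDA5, was at 48.8, 101 and 40.4 CPM against 8.43 CPM (3.04 ± 0.598; edgeR adjusted p = 0.00975) and was lost under the same 3 settings. *DHX58*, which encodes their regulator LGP2, was at 167, 267 and 100.3 CPM against 12.3 CPM (3.96 ± 0.586; edgeR adjusted p = 0.00274). The groups did not overlap for any of the 3, and injured replicate 2 was highest in each. *EIF2AK2*, the kinase PKR that halts translation when it binds double-stranded RNA, had the highest control level of the called interferon genes, 95.3 CPM, and was at 294, 436 and 240.4 CPM in the injured replicates (1.87 ± 0.318; edgeR adjusted p = 0.00512), but was not called by DESeq2.

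Other called members encode ISG15, a ubiquitin-like protein that is attached to other proteins, and enzymes that act in its attachment. *ISG15* (ENSCJAG00000011428) was at 45.2, 89.9 and 32.9 CPM in injured replicates 1 to 3, and control InN held 4 UMIs. *UBA7*, the enzyme that activates ISG15, had 374 UMIs in the injured InN and none in control. Its fold had a lower counting bound of 25.9, and was 32.1 when control is set at 3 UMIs over the library. *HERC5*, the ligase that attaches ISG15, was at 74.8, 138 and 45.1 CPM against 4.54 CPM. All 3 genes were called, and so was *HERC6*, at 299, 648 and 227 CPM against 26.3 CPM. *IFIT1*, which binds viral RNA, had 786 injured UMIs and none in control, with a lower counting bound of 54.7-fold, and 67.4-fold by the same floor. Other called members were *IFIT3*, *MX2*, *DDX60*, *PARP9* and *PARP12*, of which *DDX60* and *PARP12* were lost without injured replicate 1. *UBA7*, *IFIT1* and *IFIT3*, with at most 3 control UMIs, entered the test through the injured libraries, so their calls are no separate support.

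Other interferon genes were higher in each injured animal without a call. *OAS3*, a synthetase that activates RNA decay, was at 30.02, 68.9 and 13.9 CPM in injured replicates 1 to 3 and at 1.95 CPM in control, with a log2 fold change of 4.40 ± 1.102 (edgeR adjusted p = 0.0254). *IRF1*, a transcription factor of the pathway, was at 18.4, 42.1 and 16.3 CPM against 1.95 CPM (3.85 ± 0.787; edgeR adjusted p = 0.0116). Both were called without injured replicate 2. *TRIM25*, the ligase that activates RIG-I, was at 58.8, 80.8 and 46.5 CPM against 44.7 CPM (0.59 ± 0.293; edgeR adjusted p = 0.185), so that injured replicate 3 lay next to control.

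**Figure D2:**
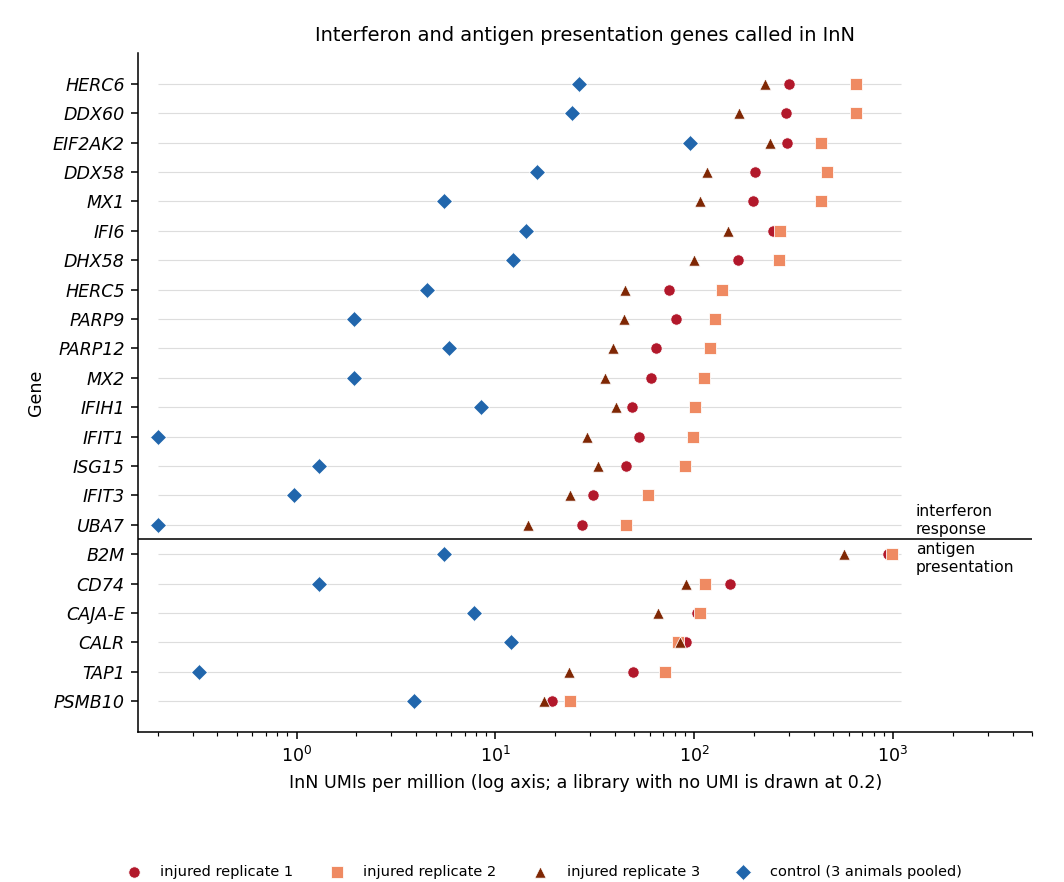
InN level (CPM, log axis) of interferon response genes and antigen presentation genes that were called, with 1 symbol per library. Every injured value plotted lies to the right of control, and among the interferon genes plotted injured replicate 2 is highest in each row.

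The interferon genes also separated the injured animals. Their summed level was 2954, 5604 and 1920.1 CPM in InN of injured replicates 1 to 3 and 451 CPM in control, and 40 of the 41 tested were highest in injured replicate 2. Of 9660 genes with at least 100 injured UMIs and at least 3 in each injured library, 30.2% were highest in that replicate. At 1000 UMIs per nucleus, 87.7%, 94.9% and 73.2% of InN of injured replicates 1 to 3 held a UMI of the 42 list genes that both tables hold, against 33.9% (30.8 to 37.0%) in control. The mean was 3.28, 5.56 and 1.83 UMIs per nucleus in the injured replicates and 0.419 in control. Most injured InN thus held interferon UMIs, with the animals in the same order as in the summed levels. No control InN of 921 held 5 or more such UMIs, which allows a share of up to 0.326%, and 24.6%, 54.6% and 9.13% of injured InN did. Nuclei with *LHX6* (means 3.63, 5.61 and 1.94) and nuclei with *ADARB2* (2.65, 5.22 and 1.58) kept the order of the animals, as did the shallow cluster (3.57, 4.95 and 1.63).

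**Figure D3:**
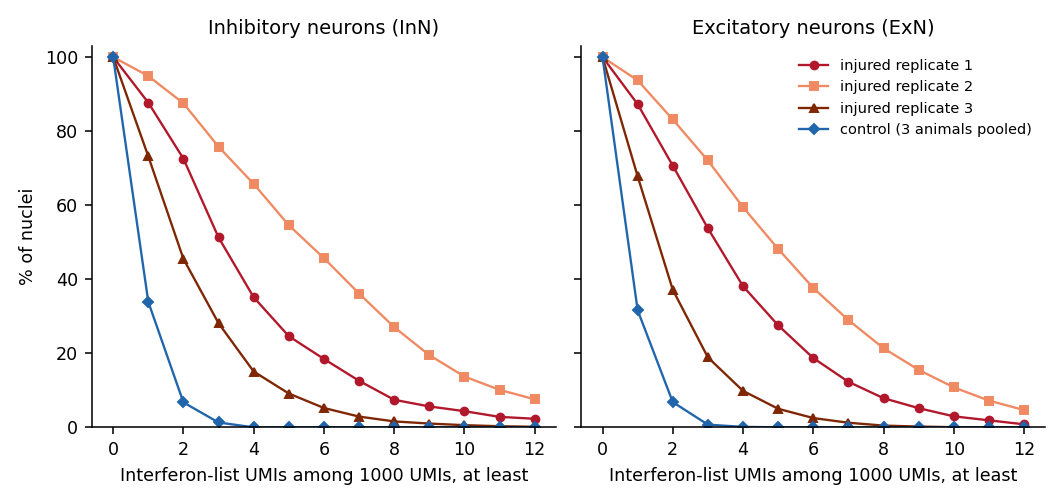
Percentage of nuclei with at least the given number of interferon-list UMIs among 1000 UMIs per nucleus, in InN (left) and ExN (right), with 1 line per library. In both neuron types the lines keep the order injured replicate 2, 1, 3 and control, and in InN 54.6%, 24.6%, 9.13% and 0.0% of nuclei reach 5 UMIs.

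These levels can be set beside other cells of the same libraries. ExN held 3.28, 4.90 and 1.43 interferon UMIs per 1000 in injured replicates 1 to 3 and 0.393 in control, oligodendrocytes 5.57, 10.4 and 2.89 against 0.801, and microglia 14.02, 24.7 and 11.3 against 2.27, so injured replicate 2 was highest in each of these cell types. The summed level of 5 microglial markers was 238, 190.1 and 147.5 CPM in injured InN and 62.9 CPM in control InN, where *C1QB* is not listed. The markers *P2RY12*, *DOCK8* and *GPR34* alone came to 57.2, 54.6 and 39.1 CPM against 61.6 CPM, so that the difference lay in *CD74* and *C1QB*. Of their levels in microglia of injured replicates 1 to 3, the InN levels were 2.97%, 2.83% and 2.08% for *DOCK8*, 7.701%, 12.8% and 6.29% for *P2RY12* and 21.3%, 34.2% and 12.4% for *GPR34*, and 8.37%, 3.64% and 5.04% for *C1QB*. For *MX1* the same percentages were 17.3%, 17.995% and 12.6%, above the other markers and below *GPR34* in injured replicates 1 and 2, and close to *GPR34* in injured replicate 3. For *IFI6* they were 105%, 75.4% and 81.4%, and for *HERC5* 91.3%, 64.9% and 87.4%, among the highest of the interferon list. Further interferon genes lay above every microglial marker in each injured animal. Among them were *EIF2AK2* at 70.0%, 76.1% and 66.4%, *DHX58* at 59.0%, 51.2% and 43.4% and *HERC6* at 40.1%, 57.1% and 38.2%. Still others lay in the range of the microglial markers or below it. Examples were *IRF1* at 5.75%, 8.67% and 7.63%, *OAS2* at 5.95%, 7.16% and 4.21% and *SP100* at 2.31%, 1.85% and 1.08%. Other cells held more *IFI6* than microglia did, with 574, 584 and 345 CPM in astrocytes and 481, 649 and 363 CPM in OPC of injured replicates 1 to 3, above InN at 248, 271 and 148 CPM. *HERC5* was at 69.1, 185 and 43.6 CPM in astrocytes and 72.04, 234 and 46.6 CPM in OPC, close to InN at 74.8, 138 and 45.1 CPM in injured replicates 1 and 3 and above it in injured replicate 2. Astrocyte markers summed to 126, 138 and 167 CPM in injured InN against 124 CPM, and oligodendrocyte markers to 146, 162 and 168 CPM against 194 CPM. The part of RNA from other cells in these differences was not tested.

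Of the antigen presentation genes, 21 were listed, 16 were tested, 6 were called, all higher, and the median log2 fold change was 2.71. Of the 16, 3 had at most 3 control UMIs and so entered the test through the injured libraries. *B2M*, the light chain of class I molecules, had the largest rise among called genes with at least 10 UMIs in each cohort, at 948, 992 and 569 CPM in injured replicates 1 to 3 and 5.51 CPM in control (7.34 ± 0.476; edgeR adjusted p = 5.05e-05). A UMI of *B2M* was present in 59.2%, 58.6% and 42.8% of injured InN at 1000 UMIs per nucleus and in 0.109% of control InN. Its level in ExN was 947, 916 and 577 CPM against 6.38 CPM in control. In the control library *B2M* was low in other cells too, with 1 UMI of 124463 in microglia and 97.99 CPM in endothelial cells, its highest level there. Whether this gene was counted alike in both tables is not known here.

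*CD74*, the chaperone of class II molecules, was at 151, 113 and 90.6 CPM in injured InN and 1.297 CPM in control (6.56 ± 0.4899; edgeR adjusted p = 8.26e-05), and in ExN at 161, 107 and 82.01 CPM against 3.34 CPM. These InN levels were 15.02%, 8.004% and 7.61% of those in microglia of the same libraries, whereas control microglia had 1 UMI of *CD74*. Control InN held 4 UMIs of *CD74*, so it entered the test through the injured libraries and its call is no separate support. *CAJA-E*, a class I heavy chain gene, was at 104, 107 and 65.6 CPM against 7.78 CPM (3.66 ± 0.377; edgeR adjusted p = 0.000355), although reads of this gene family can be shared between near-identical copies. *TAP1*, the peptide transporter into the endoplasmic reticulum, had 609 injured UMIs and 1 control UMI, a ratio of 157 with a counting interval of 28.0 to 6195. *PSMB10*, an immunoproteasome subunit, was at 19.2, 23.6 and 17.6 CPM against 3.89 CPM (2.48 ± 0.392; edgeR adjusted p = 0.00381). *PDIA3*, a peptide-loading partner, was at 78.05, 99.8 and 84.9 CPM in injured and 88.2 CPM in control, so the groups overlapped.

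Of 25 chaperone and stress genes, 19 were tested and 3 were called, all higher, with a median of 0.49, which was 0.22 without injured replicate 2, where 5 were called. *HSPA5*, the chaperone BiP, stood at 76.05, 87.4 and 84.9 CPM in injured replicates 1 to 3 and at 11.99 CPM in control, and the injured animals lay close together (2.89 ± 0.234; edgeR adjusted p = 0.000116). *HSP90B1*, its partner GRP94, was at 89.3, 102 and 107 CPM against 33.4 CPM (1.68 ± 0.201; edgeR adjusted p = 0.000834). *CALR*, the calcium-binding chaperone calreticulin, which was listed under antigen presentation, was at 91.3, 82.8 and 84.4 CPM against 11.99 CPM (2.94 ± 0.218; edgeR adjusted p = 8.26e-05). For these 3 genes the injured animals did not overlap control. The differences of *HSPA5* and *CALR* were not particular to InN. In ExN of injured replicates 1 to 3, *HSPA5* was at 66.02, 68.3 and 62.5 CPM against 10.9 CPM in control. *CALR* was at 86.3, 73.3 and 85.8 CPM against 11.9 CPM in ExN. In astrocytes *HSPA5* was at 160, 220 and 158 CPM against 21.96 CPM, and *CALR* at 99.5, 121 and 98.9 CPM against 12.7 CPM. *HSPH1*, a cytosolic chaperone, was called at 1.35 ± 0.257 (edgeR adjusted p = 0.0084) but not without injured replicate 3 or among nuclei with *GAD1* or *GAD2*. *XBP1* (ENSCJAG00000020084), a transcription factor of the unfolded protein response, was at 15.2, 20.3 and 12.1 CPM against 12.3 CPM and was not called. *ATF4*, another such factor, is among the genes without a UMI in the injured cohort and had 33 UMIs in control InN.

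Of the 8 genes of the GABA machinery, all tested, 1 was called, and the median was 0.24, which was 0.13 at 1000 UMIs per nucleus and 0.11 among nuclei with at most 2500 genes. *SLC32A1* was at 78.5, 88.6 and 82.4 CPM in injured replicates 1 to 3 and at 25.3 CPM in control, with no overlap and a small spread between animals (1.82 ± 0.201; edgeR adjusted p = 0.000526). *GAD1* was at 482, 393 and 445 CPM against 341 CPM (0.47 ± 0.152; edgeR adjusted p = 0.0599), and *GAD2* had a log2 fold change of 0.62 ± 0.232 (edgeR adjusted p = 0.0885). Both were above control in each animal without a call, and both were called without injured replicate 2. Of 18 transcription factors of interneuron lineages 15 were tested, none was called by edgeR, and 8 had an unadjusted p under 0.05. Without injured replicate 2, 4 genes of the GABA machinery and 3 of these factors were called. *LHX6* was at 77.6, 97.99 and 63.1 CPM against 120.3 CPM, a log2 fold change of -0.48 ± 0.224 (edgeR adjusted p = 0.156), below control in each animal, and was called without injured replicate 2.

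Of 26 subclass markers, 21 were tested, 3 were called, all higher, and the median was 0.78, which was 0.30 among nuclei with at most 2500 genes. Without injured replicate 2, 8 were called. *SST*, a neuropeptide, was at 57.2, 50.6 and 77.5 CPM in injured replicates 1 to 3 and at 12.3 CPM in control (2.42 ± 0.316; edgeR adjusted p = 0.00136). *CCK*, a peptide of the ADARB2 lineage, was at 40.03, 40.5 and 65.4 CPM against 11.7 CPM (2.17 ± 0.366; edgeR adjusted p = 0.005). It was not particular to InN, since ExN held more, at 123, 148 and 183 CPM in injured replicates 1 to 3 and 28.4 CPM in control. *CXCL14*, a secreted chemokine, was at 104, 104 and 107 CPM against 30.5 CPM (1.89 ± 0.181; edgeR adjusted p = 0.000243). The injured animals did not overlap control for any of these, and *CXCL14* was nearly equal in all 3. *VIP* was at 61.2, 50.7 and 77.2 CPM against 6.16 CPM (3.45 ± 0.349; edgeR adjusted p = 0.000315) and missed the call because 9.24% of injured InN held a UMI.

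The depth of the nuclei enters such shares, so they were also taken at 1000 UMIs per nucleus. There 5.56% ± 1.03 (SD, n = 3) of injured InN and 1.74% (0.996 to 2.81%) of control InN held an *SST* UMI, against 11.3% ± 1.71 (SD, n = 3) and 3.26% with all UMIs. For *VIP* the shares at 1000 UMIs were 5.20% ± 0.641 (SD, n = 3) and 0.760% (0.306 to 1.56%), and with all UMIs 9.48% ± 1.35 (SD, n = 3) and 1.78%. Each injured animal lay above control for both genes. In oligodendrocytes, which should lack both, the share at 1000 UMIs was 0.216% for either gene in injured nuclei, and 0.428% and 0.0% for *SST* and *VIP* in control. For *CCK* the shares were 4.33% ± 1.64 (SD, n = 3) in injured InN and 0.977% in control InN, with 2.80% and 1.93% in oligodendrocytes, so that neither the control InN share nor that of injured replicate 1, 2.56%, was above the oligodendrocyte share of its cohort. Oligodendrocytes had medians of 2349 UMIs in the injured cohort and 900.0 in control before thinning.

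*SST* and *VIP* were also taken within the lineages. In nuclei with *LHX6* and without *ADARB2*, *SST* was at 71.3, 55.96 and 82.3 CPM in injured replicates 1 to 3 and at 8.88 CPM in control. In nuclei with *ADARB2* and without *LHX6*, *VIP* was at 185, 191 and 266 CPM against 23.1 CPM. The control levels rest on few UMIs, 8 for *SST* and 18 for *VIP*. *PVALB*, the calcium buffer of fast-spiking cells, was below control in each animal, at 26.4, 54.2 and 27.2 CPM against 61.3 CPM (-0.62 ± 0.358; edgeR adjusted p = 0.246), and was called lower without injured replicate 2, the animal nearest to control. *NPY*, a peptide of a subset of SST cells, was at 27.2, 6.78 and 20.1 CPM against 5.51 CPM (1.73 ± 0.721; edgeR adjusted p = 0.121), and its log2 fold change was -0.36 among nuclei with at most 2500 genes. *CALB1* and *RELN* were above control in each animal without a call, at 0.90 and 0.50 on the log2 scale, and were called without injured replicate 2.

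Genes of receptors, channels and release had median differences of 0.26 to 0.46 on the log2 scale. At 1000 UMIs per nucleus these medians were 0.19 to 0.34, and that of the glutamate receptors was 0.26 in place of 0.46. The calls in these lists moved with single animals. Without injured replicate 2 there were 13 for glutamate receptors, 6 for GABA receptors, 9 for channels and 7 for release, and without injured replicate 1 there were 0, 1, 1 and 0. The 3 called glutamate receptor genes of 23 tested were the subunits *GRIA1*, *GRIA2* and *GRIA3* of the AMPA receptor, which carries fast excitation. *GRIA2*, the subunit that limits calcium entry, was at 1278, 1195 and 1244 CPM in injured replicates 1 to 3 and at 699.9 CPM in control (0.93 ± 0.145; edgeR adjusted p = 0.00367), and its call was lost without injured replicate 1. *GRIA1* and *GRIA3* had log2 fold changes of 0.87 ± 0.158 and 0.88 ± 0.152, and each was lost without injured replicate 1 and without injured replicate 3. *GRIA1* was also lost at 1000 UMIs per nucleus and among nuclei with at most 2500 genes. *GRIN1*, the obligate NMDA receptor subunit, was at 12.01, 11.7 and 15.1 CPM against 29.5 CPM and was not called (-1.08 ± 0.266; edgeR adjusted p = 0.0239).

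Of 15 GABA receptor genes tested, 3 were called higher, with a median of 0.37. *GABRA2*, a subunit of the GABA-gated channel, was at 97.7, 89.9 and 106 CPM in injured replicates 1 to 3 and 47.7 CPM in control (1.14 ± 0.181; edgeR adjusted p = 0.00385) and was lost without injured replicate 1 and at 1000 UMIs per nucleus. *GABBR1*, a subunit of the metabotropic GABA receptor, was lost without injured replicate 1, without injured replicate 3, at 1000 UMIs per nucleus, with library totals alone and among nuclei with *GAD1* or *GAD2*. Of 25 voltage-gated channel genes tested, 3 were called higher. *SCN2A*, which forms a sodium channel pore, was at 357, 338 and 385 CPM against 201 CPM (0.94 ± 0.151; edgeR adjusted p = 0.00393), and *SCN3A*, of the same family, at 170.1, 141 and 148 CPM against 79.4 CPM (1.04 ± 0.166; edgeR adjusted p = 0.00393). Both lay above control in each animal and were lost without injured replicate 1. *KCNC1*, a potassium channel of fast-spiking cells, was at 129, 169.6 and 130.5 CPM against 190.3 CPM (-0.30 ± 0.186; edgeR adjusted p = 0.278). Of 21 release genes tested, 1 was called, the vesicle SNARE *VAMP1*, at 26.8, 32.8 and 28.96 CPM against 11.7 CPM (1.45 ± 0.275; edgeR adjusted p = 0.00825), which kept its call in 7 of 14 alternatives. It was lost without injured replicate 1, without injured replicate 3, with library totals alone, with DESeq2, at 1000 UMIs per nucleus, among nuclei with *GAD1* or *GAD2* and without the shallow cluster.

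**Figure D4:**
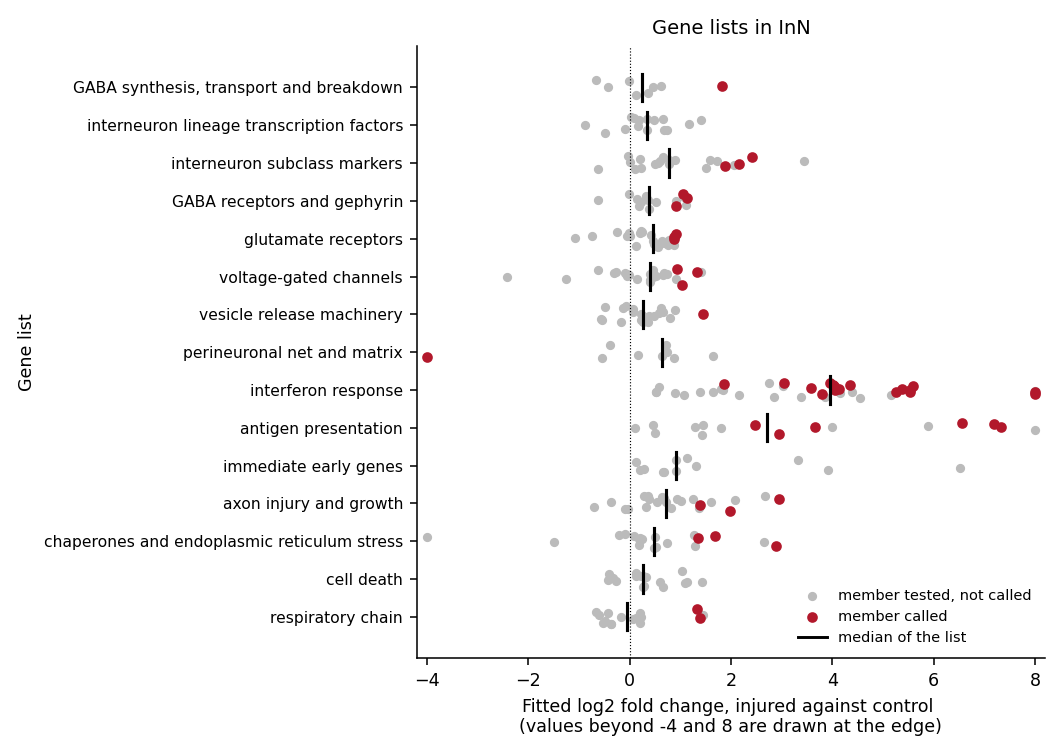
Fitted log2 fold change of injured against control InN for each tested member of 15 gene lists, with called members in red, the others in grey and the list's median as a black bar. The interferon response and antigen presentation lists have medians of 3.96 and 2.71, and the median of the respiratory chain list is -0.055 (0.061 with no filter on low counts).

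Among genes of axon injury and growth, 23 were tested and 3 were called, all higher, with a median of 0.71, and 10 were called without injured replicate 2. *MARCKS*, a membrane protein that binds actin, was at 31.2, 38.1 and 28.7 CPM in injured replicates 1 to 3 and at 4.54 CPM in control (2.95 ± 0.349; edgeR adjusted p = 0.000813). *SAT1*, the rate-limiting enzyme of polyamine breakdown, was at 161, 177 and 152 CPM against 44.4 CPM (1.98 ± 0.184; edgeR adjusted p = 0.000203). Neither gene overlapped control. *STMN4*, a microtubule regulator of neurons, was called at 1.40 ± 0.237 (edgeR adjusted p = 0.005) but not without injured replicate 1, without injured replicate 3 or at 1000 UMIs per nucleus. *ATF3*, a transcription factor of injured neurons, had 31 injured and 2 control UMIs, a ratio of 3.99 with a counting interval of 1.01 to 34.4.

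Genes of activity and death gave no call by edgeR, and 2 of 16 genes of respiration were called, beside 3.41% of all genes tested. Of 22 immediate early genes 12 were tested, none was called by edgeR, and 5 had an unadjusted p under 0.05, all of them higher. All 12 had a positive log2 fold change, with a median of 0.92, and 2 of them had at most 3 control UMIs. *FOS* had 35 UMIs in all injured InN and none in control. Of 17 cell death genes tested, none was called by edgeR and 6 had an unadjusted p under 0.05, beside 4518 of all 12984 genes tested. The median log2 fold change of the cell death genes was 0.27. Of 16 respiratory chain genes tested, *COX4I1* and *COX7C*, both of complex IV, were called higher (none without injured replicate 1 and 3 without injured replicate 2), and 8 of 16 had a negative log2 fold change. *COX7C* kept its call in only 5 of 14 alternatives, and lost it, among others, with DESeq2, with library totals alone, at 1000 UMIs per nucleus, without the shallow cluster, without injured replicate 1 and without injured replicate 3. *COX4I1* lost it without injured replicate 1 and at 1000 UMIs per nucleus. *SDHB* of complex II was at 104, 116 and 111 CPM against 169.9 CPM (-0.52 ± 0.148; edgeR adjusted p = 0.0401), and was called lower without injured replicate 2. The 1 called gene of 9 tested in the perineuronal net list was *HAPLN4*, which had 313 UMIs in control InN and 1138 in control ExN and is listed at 0 in every cell type of every injured library, so no fold is given. Without injured replicate 2, 3 genes of that list were called.

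Of the 10 largest rises among called genes with at least 10 UMIs in each cohort, 8 were in the lists above and 2 were not. Each of the 10 passed the limit of 10% of InN only through injured InN, so passing it adds no support to their calls. A UMI was held by 30.3% (*HERC5*) to 94.6% (*B2M*) of injured InN and 1.29% (*HERC5*) to 6.92% (*DDX60*) of control InN. *PRODH* (ENSCJAG00000010707), the mitochondrial enzyme that starts proline breakdown, was at 185, 110.4 and 166 CPM in injured replicates 1 to 3 and at 9.73 CPM in control. The injured animals lay well above control, injured replicate 2 lowest of them (4.07 ± 0.359; edgeR adjusted p = 0.000153). ENSCJAG00000003364, which has no symbol in the files or the name table, was at 152, 326 and 85.4 CPM against 8.43 CPM, with injured replicate 2 highest, and its call was lost without injured replicate 1.

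The 10 largest falls under the same limit were of genes with 56 to 203 UMIs in all injured InN. Each of the 10 passed the limit of 10% of InN only through control, so passing it adds no support to their calls. A UMI was held by 10.1% (*TEK*) to 23.7% (*SNRPG*) of control InN and 2.39% (*CYP2A7*) to 8.61% (*SNRPG*) of injured InN. *COCH*, an extracellular matrix protein, was at 16.4, 11.7 and 16.8 CPM in injured replicates 1 to 3 and 87.5 CPM in control (-2.46 ± 0.219; edgeR adjusted p = 0.000155). *TEK*, the angiopoietin receptor of endothelial cells, was at 6.404, 5.31 and 4.21 CPM against 34.7 CPM (-2.62 ± 0.292; edgeR adjusted p = 0.000554). The endothelial markers in the same InN sums came together to 62.8, 63.7 and 68.3 CPM against 60.9 CPM, but 2 of the 3 went opposite ways. *FLT1* was at 16.01, 22.3 and 14.6 CPM against 32.1 CPM, lower in each injured animal as *TEK* was, and *IGFBP7* was at 25.6, 19.6 and 29.2 CPM against 9.73 CPM. Their part in the fall of *TEK* was not tested. *HKDC1*, a hexokinase, was at 7.205, 5.49 and 5.94 CPM against 39.5 CPM (-2.59 ± 0.268; edgeR adjusted p = 0.00036). *SNRPG*, a core protein of spliceosomal particles, was at 21.6, 16.3 and 14.9 CPM against 93.7 CPM (-2.34 ± 0.207; edgeR adjusted p = 0.000155), and *SNRPN* (ENSCJAG00000003759), a related gene of neurons, was at 10.4, 14.1 and 11.6 CPM against 48.3 CPM (-1.87 ± 0.246; edgeR adjusted p = 0.00145). Both belong to families with near-identical copies, so their counts are uncertain. The largest fall was of ENSCJAG00000036060, which the name table gives as *CYP2A7*, at 4.003, 6.04 and 3.22 CPM against 47.7 CPM (-3.26 ± 0.316; edgeR adjusted p = 0.000257). The other 4 were ENSCJAG00000023383, ENSCJAG00000009684, ENSCJAG00000005154 and ENSCJAG00000016507, with log2 fold changes of -2.80, -2.51, -2.36 and -2.25, and the last was lost without injured replicate 3.

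Most genes varied little between the injured animals, each of which gave 1 library. Over 9660 genes with at least 100 injured UMIs and at least 3 in each injured library, the median ratio of the highest to the lowest animal was 1.23, and 342 genes (3.54%) exceeded 2. Interferon genes were 38 of the 9660 and 33 of them exceeded 2, with a median ratio of 3.08. Of the 10 genes that spread most, 7 were highest in injured replicate 2 and 3 in injured replicate 1. *TLR3*, the endosomal receptor for double-stranded RNA, was at 5.203, 18.7 and 1.24 CPM in injured replicates 1 to 3, a ratio of 15.1, and at 0.973 CPM in control. *RSAD2*, which encodes the antiviral enzyme viperin, spread 13.02-fold, at 3.202, 16.1 and 1.24 CPM. *CMPK2*, a mitochondrial nucleotide kinase, spread 11.1-fold, at 9.21, 21.98 and 1.98 CPM. Injured replicate 3 was lowest for all 3, with 5 to 8 UMIs. *IDO1*, the interferon-induced enzyme that breaks down tryptophan, was at 6.004, 24.2 and 2.97 CPM, *RARRES3* at 7.605, 50.7 and 5.45 CPM and *MOV10*, an RNA helicase, at 46.4, 89.4 and 12.4 CPM. *RBM44*, an RNA-binding protein, ran the other way, at 24.4, 1.83 and 21.5 CPM with control at 14.9 CPM. The remaining 3 were ENSCJAG00000012987, ENSCJAG00000022000 and ENSCJAG00000032474, with ratios of 7.51, 6.69 and 6.34. None of these 10 was called between the cohorts, and *MOV10* and ENSCJAG00000032474 were called without injured replicate 2.

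The difference between the injury effects of InN and ExN was tested directly, with each library as a block. Of 14840 genes tested, 15 passed an adjusted p of 0.05 (0.101%), 10 with a positive difference (InN above ExN) and 5 with a negative one. No gene passed without the library block, and most of the 15 were lost at a stricter limit. None of the 42 interferon genes tested was among the 15 by edgeR, and the median difference of the 42 was -0.019. At an unadjusted p under 0.05 there were 8 of the 42, beside 911 of all 14840 genes. Genes past the adjusted limit numbered 305 without injured replicate 2 and 57 without injured replicate 3.

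*PNOC*, the precursor of the opioid-like peptide nociceptin, was at 75.2, 67.6 and 95.1 CPM in InN of injured replicates 1 to 3 and 27.2 CPM in control InN, and in ExN at 10.6, 8.32 and 14.6 CPM against 12.5 CPM. It was above control in every injured InN library and on both sides of control in ExN (difference 1.72 ± 0.222 on the log2 scale; edgeR adjusted p = 0.018). *IGF1*, the growth factor, was at 175, 159 and 169 CPM against 96.3 CPM in InN and at 10.9, 14.4 and 15.6 CPM against 23.9 CPM in ExN (1.58 ± 0.207; edgeR adjusted p = 0.018), above control in all injured InN libraries and below it in all injured ExN libraries. *COL27A1*, a fibrillar collagen, was at 18.8, 27.7 and 37.1 CPM against 8.104 CPM in InN and at 36.1, 34.5 and 49.1 CPM against 45.8 CPM in ExN (2.005 ± 0.305; edgeR adjusted p = 0.0327). *SLC24A3*, a sodium, calcium and potassium exchanger, and *ANKFN1* had differences of 1.53 ± 0.2204 and 1.55 ± 0.232, and *SLC24A3* was lost without injured replicate 1. *COL27A1* and *ANKFN1* were lost without the shallow cluster. The others with a positive difference were *MYO3A*, *RERG*, *NCKAP5*, *ABI3BP* (ENSCJAG00000000533) and *KCNT2*, at 1.51, 1.48, 1.24, 0.93 and 0.92, of which *ABI3BP* and *KCNT2* were lost without injured replicate 1, and *RERG* and *KCNT2* without the shallow cluster. *MYO3A* was level in InN, at 97.7, 97.1 and 102 CPM against 100.2 CPM, and below control in ExN, at 15.9, 13.9 and 13.7 CPM against 41.4 CPM.

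Among the negative differences, the collagen gene *COL11A1* was at 231, 234 and 184 CPM in InN of injured replicates 1 to 3 and 58.999 CPM in control, and in ExN at 190.1, 199 and 167 CPM against 17.8 CPM (-1.51 ± 0.162; edgeR adjusted p = 0.00726). Both neuron types lay above control in all animals, ExN by more. *MCOLN2*, an endolysosomal channel, was at 6.404, 4.396 and 4.46 CPM against 17.8 CPM in InN and at 19.4, 24.7 and 14.2 CPM against 10.4 CPM in ExN (-2.80 ± 0.359; edgeR adjusted p = 0.018), so it lay on opposite sides of control in the neuron types. *HS3ST2*, a heparan sulfate sulfotransferase, and *QKI*, an RNA-binding protein best known from glia, had differences of -1.13 ± 0.157 and -0.89 ± 0.132, and both were lost without injured replicate 1. *QKI* was also lost without the shallow cluster. The last gene, ENSCJAG00000000469 (-3.72), had 6 UMIs in control ExN.

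**Figure D5:**
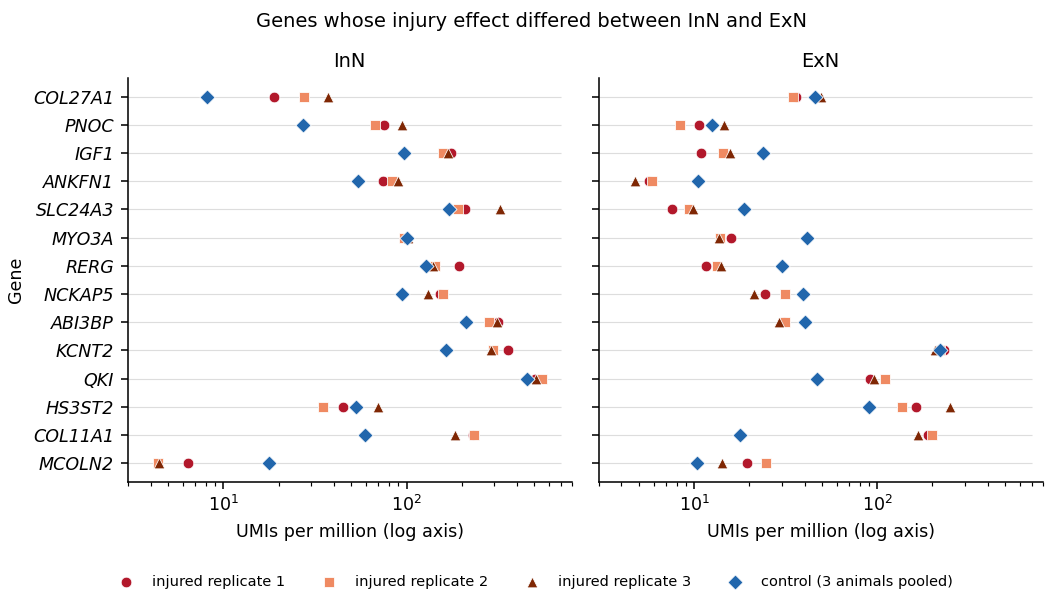
Level (CPM of the cell type, log axis) in InN (left) and ExN (right) of the 14 genes with a differing injury effect and at least 10 UMIs in each cohort of both types, with 1 symbol per library. *COL27A1*, *PNOC* and *IGF1* lie above control in injured InN (*IGF1* 159 to 175 against 96.3), and *MCOLN2* lies below control in injured InN and above it in injured ExN.

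Within InN, nuclei with *LHX6* and without *ADARB2* were compared in the same way with nuclei with *ADARB2* and without *LHX6*. Of 10972 genes tested, 1 passed (0.00911%), and 640 had an unadjusted p under 0.05. That gene was *KCNT2*, a sodium-activated potassium channel. In ADARB2 nuclei it was at 1000.2, 996 and 903 CPM in injured replicates 1 to 3 and 524 CPM in control, and in LHX6 nuclei at 8.32, 15.99 and 15.4 CPM against 35.5 CPM. The classes lay on opposite sides of control in every animal (difference -2.20 ± 0.381; edgeR adjusted p = 0.0485). The call was lost with DESeq2, with libraries scaled by their totals alone, at 1000 UMIs per nucleus and without the shallow cluster. Without injured replicate 1 there were 18 such genes and without injured replicate 2 there were 33. *B2M* was at 816, 836 and 478 CPM in LHX6 nuclei and 1087, 1164 and 726 CPM in ADARB2 nuclei, with 3 UMIs in either class of control. Nuclei in which neither gene was detected were in neither class, and these were 36.1%, 40.4% and 45.8% of InN of injured replicates 1 to 3 and 47.5% of control InN.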

How the data were processed

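Single nuclei of V1 were measured by droplet RNA sequencing (10x Chromium), per the labels. The authors made the counts with Cell Ranger 3.1.0 on the calJac3 assembly and deposited 2 tables of raw UMI counts per gene and nucleus, together with cluster and cell type labels per nucleus. The injured libraries came from ultracentrifuged nuclei with doublets removed by Scrublet, and the control library came from sorted nuclei with limits on genes per nucleus. No further doublet removal was applied here, and genes were taken from the 16383 listed in both tables. UMIs of InN were summed per library and tested with edgeR 4.0.16 (TMM scaling, filterByExpr, quasi-likelihood test, Benjamini-Hochberg adjustment) in R 4.3.3. Counts were 2498404 to 5459835 UMIs per InN sum, and intervals cover counting error only. Injury effects of InN and ExN, and of LHX6 and ADARB2 nuclei, were compared by interaction terms with the library as a block, at an adjusted p of 0.05. The SE of a log2 fold change was taken from the F statistic. Thinning drew 1000 UMIs per nucleus (numpy 2.4.6). Alternatives were RLE factors, library totals alone, DESeq2 1.42.0, no filter on low counts, thinning and at most 2500 genes per nucleus. Further ones were nuclei with GAD1 or GAD2, other limits, genes not listed for control counted as 0 there, and leaving out each injured replicate. Leaving out the shallow cluster was chosen after seeing the data. Each injured replicate is 1 animal, and the control library is 1 pool, for which no spread can be had. Named genes were the list members, the 10 largest rises and falls among called genes with at least 10 UMIs in each cohort, the 10 that spread most between injured animals, and for each interaction the 5 largest differences in each direction with at least 10 UMIs in each cohort of both classes. MYO3A, RERG, NCKAP5, ABI3BP, KCNT2 (InN against ExN) and ENSCJAG00000000469 were named after their values were seen, as the rest of the 15. PRODH, CYP2A7, SNRPN, ABI3BP, ISG15 and XBP1 have their symbols from a RefSeq name table. The members and gene lists were chosen with earlier results of these data known. Some members of the lists are counted but not reported here by name. Nothing was read from sequences, which were not analysed here.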

Additional observations from a re-analysis of the deposited data

Results flagged for a closer look

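The injury effect differed between InN and ExN for 15 genes by the interaction test, and the differences on the log2 scale were 2.005 for COL27A1, 1.72 for PNOC, 1.58 for IGF1, 1.55 for ANKFN1, 1.53 for SLC24A3, 1.51 for MYO3A, 1.48 for RERG, 1.24 for NCKAP5, 0.93 for ABI3BP and 0.92 for KCNT2. Negative differences, where the InN effect lay below that of ExN, were -3.72 for ENSCJAG00000000469, -2.80 for MCOLN2, -1.51 for COL11A1, -1.13 for HS3ST2 and -0.89 for QKI. Between LHX6 and ADARB2 nuclei, KCNT2 alone differed, by -2.20 on the log2 scale.

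UMIs were also found in genes that the control table does not list and that the main comparison left out. In injured InN the mean levels of such interferon or antigen presentation genes were 29.6 CPM for GBP1, 16.4 CPM for CXCL10, 3.71 CPM for PSMB8 and 1.89 CPM for BST2. A fit that counted genes not listed for control as 0 there called 473 genes, among them all 443 of the main comparison. Such genes could enter that fit only through the injured libraries, and no difference from control is read for them.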

How the results depend on the processing

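No pairing of injured with control samples was possible, because the control cohort was 1 pool of 3 other, uninjured animals. Of the 443 genes called between cohorts, 241 were kept without injured replicate 1 and 283 without injured replicate 3, the counts ran from 253 to 1499 when a replicate was left out, and 1433 were called at an adjusted p of 0.05. DESeq2 called 486 and kept 395, and at 1000 UMIs per nucleus 415 were called and 299 kept. Members called in the gene lists (46) numbered 86 at an adjusted p of 0.05 and 32 to 106 with a replicate left out, the highest without injured replicate 2. Genes that differed between InN and ExN (15) numbered 32 without a filter on low counts, 2 at an adjusted p of 0.01, 0 without the library block and 12 to 305 with a replicate left out (57 without injured replicate 3). Genes that differed between LHX6 and ADARB2 nuclei (1) numbered 0 with library totals alone, DESeq2, 1000 UMIs per nucleus, an adjusted p of 0.01, no library block or no shallow cluster, 15 without a filter on low counts, and 1 to 33 with a replicate left out (18 without injured replicate 1). The share of InN was 4.52 percentage points below control (-4.52) among all nuclei and 3.03 above it among neuronal nuclei, or 0.661 above it without the shallow cluster. NPY had a log2 fold change of -0.36 at most 2500 genes per nucleus in place of 1.73. Some genes that were not called also changed sign. At 1000 UMIs per nucleus the log2 fold change of ENSCJAG00000022000 was -0.90 and that of RBM44 -0.63, and RBM44 was at -1.08 at most 2500 genes per nucleus. With a replicate left out, PDIA3 ranged from -0.016 to 0.19, ENSCJAG00000012987 from -0.038 to 1.55, ENSCJAG00000022000 from -0.19 to 0.84 and RBM44 from -0.34 to 0.71. The causes of these differences were not tested. With 1 control pool, the depth of control InN limits genes under about 10 UMIs there, and the spread of control animals is unknown.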
